A study of Mus musculus with 93 samples.

Results

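Oocytes of 7 week old mice lacking Esr2 were set against oocytes of wild type mice of the same age. All 12 knockout libraries and all 5 wild type libraries of this cell type and age were used, 17 of the 93 samples of the study, and every gene of their count table was considered. The study profiled oocytes and granulosa cells of both genotypes at 4 weeks, 7 weeks and 6 months with Smart-seq2, which copies whole transcripts from a few cells or less into cDNA before sequencing. The libraries used here for comparison were 7 knockout and 12 wild type oocyte libraries at 4 weeks, 4 knockout and 11 wild type oocyte libraries at 6 months, and 5 knockout and 5 wild type granulosa libraries at 7 weeks. The labels give the genotype as knockout or wild type and the tissue as ovary. They give neither the allele, nor the strain, nor the animals or the number of oocytes behind a library, so the p-values rest on differences among libraries alone, some of which can be technical.

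Esr2 encodes estrogen receptor beta, a nuclear receptor that binds estradiol and switches target genes through estrogen response elements. In the ovary it is known mainly from granulosa cells, the somatic cells around the oocyte, which make estradiol and, after the ovulatory signal, progesterone. The oocyte is joined to these cells by fine projections across its coat, the zona pellucida, so an isolated oocyte can carry somatic cells or their RNA with it. A growing oocyte stores maternal transcripts for meiosis and for the first divisions of the embryo, and secretes factors such as Gdf9 that act on the granulosa cells.

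Depth ran from 1814958 to 6134429 estimated counts in the knockout libraries and from 2278359 to 5209449 in the wild type libraries, and 12997 to 14967 genes had a count. The shallowest library of each group, knockout 1 and wild type 1, also stood apart in profile. Their median correlation with the other libraries was 0.865 and 0.812, against 0.887 to 0.941 for the other 15, and they took the far end of the first principal component, which held 34.9% of the variance. One knockout column joins the numbers 4 and 5 in its name, so whether it is 1 sample, a pool or a rerun is not known; it is called the joined library here. No pair among the 136 pairs of libraries agreed within sampling noise. The oocyte label was borne out by the markers: the 15 oocyte markers, among them Zp1, Zp2, Zp3, Gdf9 and Bmp15, summed to 16263 to 31603 CPM, counts scaled to a common library total, in knockout and to 13795 to 26150 CPM in wild type libraries.

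Esr2, at chr12:76120419-76177259 on the minus strand (GRCm38, mm10), checks the genotype. It had 3 counts in knockout library 2, 1 count in knockout library 10 and none in the other 10 knockout libraries. Wild type libraries 1 to 5 held 134, 267, 342, 308 and 463 counts, or 58.8, 66.5, 73.0, 61.8 and 88.9 CPM of the library total. The groups did not overlap, and every library matched its label. In the 7 week wild type granulosa libraries Esr2 averaged 25.7 ± 6.75 CPM (SD, n = 5), below each wild type oocyte library. Esr1, which encodes estrogen receptor alpha, spanned 20.4 to 66.8 CPM with a median of 40.4 in knockout oocytes, against 41.0, 41.0, 55.8, 39.2 and 33.3 CPM in wild type oocytes. Fold changes are given throughout as knockout over wild type on the log2 scale, and that of Esr1 was -0.01 ± 0.22 (SE; adjusted p = 0.987) in edgeR's quasi-likelihood test.

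Few genes beyond Esr2 passed the test between knockout and wild type oocytes. Of 11711 genes tested, 18 passed at an adjusted p under 0.05 (edgeR quasi-likelihood test, Benjamini-Hochberg over all tested genes), which is 0.154% of them. Of these, 2 were higher in knockout oocytes (0.0171%) and 16 were lower (0.137%), Esr2 included. All 18 differed by at least 2-fold on the fitted scale. At an unadjusted p under 0.05 the count was 1963 genes (16.8%), 1047 higher (8.94%) and 916 lower (7.82%), and the median log2 fold change of all tested genes was -0.01.

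The number of calls depended on which libraries were in the fit. It was 296 without knockout library 1, 61 without wild type library 3 and 28 without knockout library 2, and it was 2 without wild type library 2 and 5 to 9 without any 1 of 11 others. With the sample number as a block, over the 4 numbers that both genotypes share, 38 genes passed, 16 of them higher in knockout, and 10 of the 18 genes were among them. The same 8 libraries without the block gave 1 gene, Esr2. Chchd10, Bspry, Cript and Eef2 lost their call under the block, with adjusted p of 0.107, 0.216, 0.211 and 0.230, and Krt18 and Bex4 could not be fitted in it. Fold changes of single genes were compared over up to 25 alternatives. None of the 17 genes other than Esr2 turned its direction in those of the 25 in which it could be fitted, and each passed in 8 to 22 of them. The bars of calls by processing choice show the range of counts and include fits outside these 25.

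**Figure D1:**
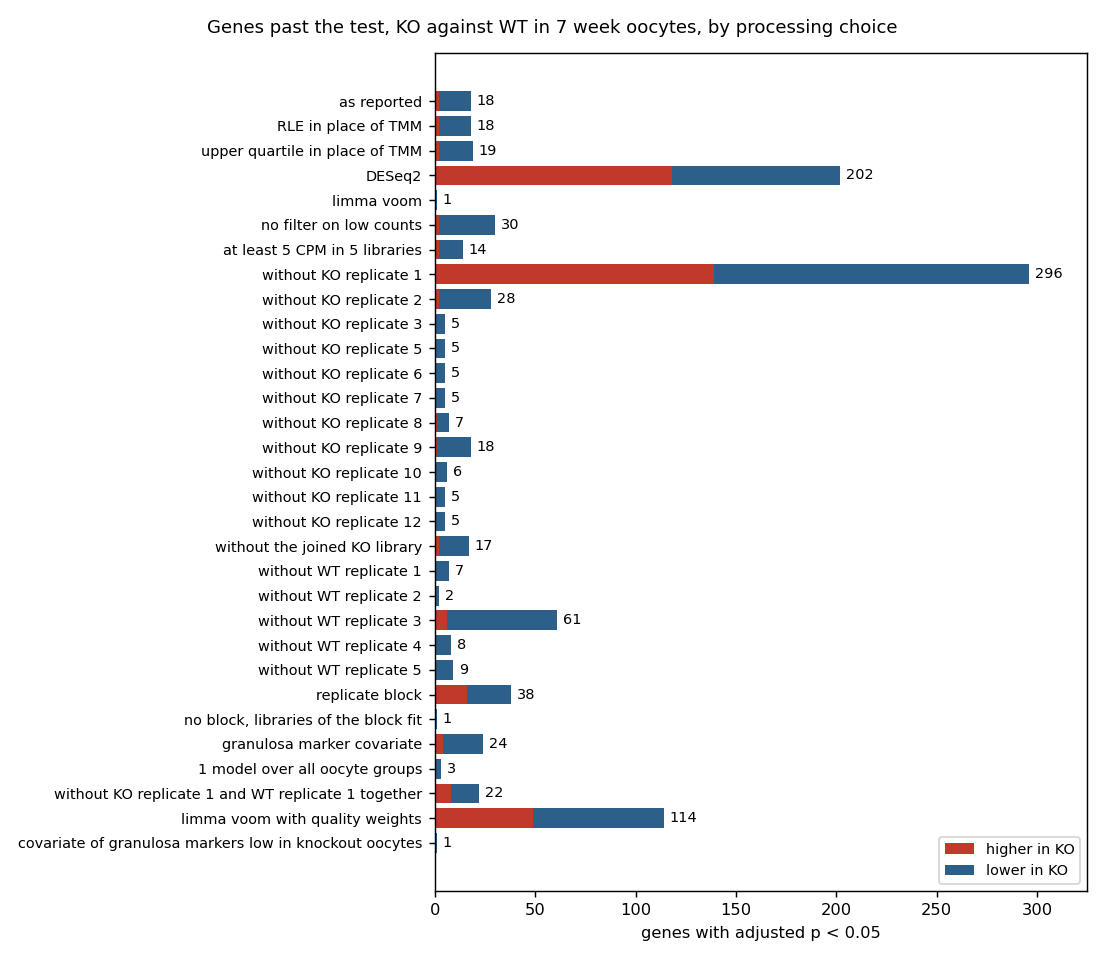
Number of genes past an adjusted p of 0.05 (horizontal axis) in 7 week oocytes for each processing choice (rows), split into genes higher in knockout (red) and lower in knockout (blue). The count is 18 as reported, 296 without knockout library 1, 2 without wild type library 2 and 202 with DESeq2.

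Septin12 and Ptar1 were the 2 genes higher in knockout oocytes, and in both every knockout library lay above every wild type library. Septin12, a septin GTPase known from the sperm tail, spanned 7.77 to 31.6 CPM with a median of 14.5 in knockout libraries, against 1.26, 6.04, 5.05, 3.99 and 3.35 CPM in wild type libraries, a log2 fold change of 1.94 ± 0.37 (SE; adjusted p = 0.0302). Ptar1, a prenyltransferase subunit that attaches lipid anchors to proteins, spanned 12.3 to 20.9 CPM with a median of 16.2 in knockout, against 2.93, 8.505, 8.08, 4.75 and 8.37 CPM in wild type libraries (log2 1.28 ± 0.25 SE, adjusted p = 0.034). Such a complete separation with knockout above was seen in 10 of all tested genes (0.0854%), and with knockout below in 6 (0.0512%). With the sample number as a block neither passed, at log2 1.57 (adjusted p = 0.142) for Septin12 and 1.17 (adjusted p = 0.180) for Ptar1, and 11 of the 17 fits that leave out 1 library called 0 higher genes. The next genes in that direction did not pass and overlapped between the groups. Tmem108, a transmembrane protein, had medians of 101 CPM in knockout and 48.9 CPM in wild type libraries (log2 1.16 ± 0.25, adjusted p = 0.0661). Il1rap, the accessory chain of the interleukin-1 receptor, had medians of 40.6 and 14.8 CPM in knockout and wild type (log2 1.33 ± 0.31, adjusted p = 0.0866), and Oma1, a protease of the inner mitochondrial membrane, 156 and 94.8 CPM (log2 0.82 ± 0.19, adjusted p = 0.0872).

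Cyp11a1, Tmem86a and Akr1cl had the smallest p among the lower genes after Esr2, and Cyp11a1 is the 1 of them on the steroid synthesis list. It makes the enzyme that cleaves the side chain of cholesterol, the first step of steroid synthesis. Cyp11a1 spanned 0 to 6.38 CPM with a median of 1.35 in knockout oocytes, against 30.6, 26.6, 1.21, 40.7 and 61.2 CPM in wild type oocytes (log2 -4.14 ± 0.61 SE, adjusted p = 0.0039). Wild type library 3 lay within the knockout range, and the other 4 wild type libraries lay above it. Cyp11a1 was also the 1 gene besides Esr2 that still passed without wild type library 2. Its fold change was -4.30 (adjusted p = 0.000969) with the summed granulosa markers as a covariate, and -3.14 (adjusted p = 0.182) with only the low-level granulosa markers described below. Akr1cl, of the aldo-keto reductase family, spanned 8.01 to 36.6 CPM (median 16.8) in knockout, against 125, 83.9, 21.6, 51.5 and 77.7 CPM in wild type libraries (log2 -1.90 ± 0.31, adjusted p = 0.0112). Tmem86a, a membrane enzyme that hydrolyses lysoplasmalogens, spanned 0 to 2.34 CPM (median 0.255) in knockout, against 12.6, 36.0, 0.202, 9.13 and 19.2 CPM in wild type (log2 -4.46 ± 0.68, adjusted p = 0.00422). In all of these wild type library 3 was the lowest of its group.

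Fth1, Gm2a, Chchd10 and Krt18 were also lower, and have unlike functions. Fth1, the heavy chain of the iron store ferritin, spanned 10.9 to 78.6 CPM (median 19.0) in knockout, against 33.1, 242, 34.6, 197 and 108 CPM in wild type libraries (log2 -2.22 ± 0.43 SE, adjusted p = 0.0302). Gm2a, a lysosomal cofactor of ganglioside breakdown, spanned 0.836 to 8.18 CPM (median 1.95) in knockout, against 14.2, 29.3, 1.21, 11.2 and 52.4 CPM in wild type (log2 -2.75 ± 0.56). Chchd10, a protein of the mitochondrial intermembrane space, spanned 1.04 to 10.7 CPM (median 3.56) in knockout, against 22.2, 72.1, 1.21, 23.0 and 21.6 CPM in wild type (log2 -2.90 ± 0.50). Krt18, a keratin of simple epithelia, spanned 0 to 2.73 CPM (median 0.343) in knockout, and its wild type values of 2.09, 80.1, 0, 4.37 and 9.11 CPM were carried by library 2. Without that library, Cyp11a1 and Esr2 still passed and Krt18 did not. Fth1, like ribosomal protein genes, has processed copies elsewhere in the genome, so its counts may be split or shared with them.

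Bex4 and Tceal9, X-linked genes of related families of small proteins, also fell. Bex4 spanned 0 to 2.93 CPM (median 0.355) in knockout, against 7.95, 41.4, 0.606, 7.61 and 10.0 CPM in wild type (log2 -3.90 ± 0.78). Tceal9 spanned 0.259 to 10.2 CPM (median 3.04) in knockout, against 70.7, 73.0, 1.62, 13.9 and 17.9 CPM in wild type (log2 -3.13 ± 0.60). They lie at chrX:136138996-136140443 and chrX:136245079-136247139, both on the plus strand. Rgcc, a regulator of the cell cycle, had medians of 1.22 CPM in knockout and 14.996 CPM in wild type libraries (log2 -3.11 ± 0.61). In these 3 genes, too, wild type library 3 fell within the knockout range.

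In Bspry, Cript and Eef2 wild type library 3 lay above every knockout library. Bspry, a B-box and SPRY domain protein, was the 1 lower gene besides Esr2 in which every knockout library lay below every wild type library. It spanned 0.491 to 7.21 CPM (median 2.46) in knockout, against 20.5, 8.505, 9.90, 21.1 and 9.11 CPM in wild type (log2 -2.22 ± 0.43 SE, adjusted p = 0.0302). Cript, a PDZ-binding protein, spanned 20.1 to 36.6 CPM (median 27.7) in knockout, against 28.5, 65.8, 51.1, 114 and 51.1 CPM in wild type (log2 -1.17 ± 0.23, adjusted p = 0.0302), and here wild type library 1, not 3, was the one inside the knockout range. Eef2, translation elongation factor 2, had medians of 27.4 CPM in knockout and 68.8 CPM in wild type (log2 -1.08 ± 0.21), with wild type library 5 inside the knockout range at 26.6 CPM. Malat1, a nuclear long noncoding RNA, spanned 2.08 to 22.3 CPM (median 6.37) in knockout, against 145, 97.1, 15.8, 44.1 and 29.4 CPM in wild type (log2 -2.90 ± 0.53, adjusted p = 0.0288), and wild type library 3 was the lowest of its group and within the knockout range. The last of the 16, Gm37376 (log2 -2.89 ± 0.55), is named outside the rule for naming genes; at chr19:5801941-5802393 on the plus strand it lies within Malat1, chr19:5795690-5802672 on the minus strand, so without strand their reads cannot be told apart.

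**Figure D2:**
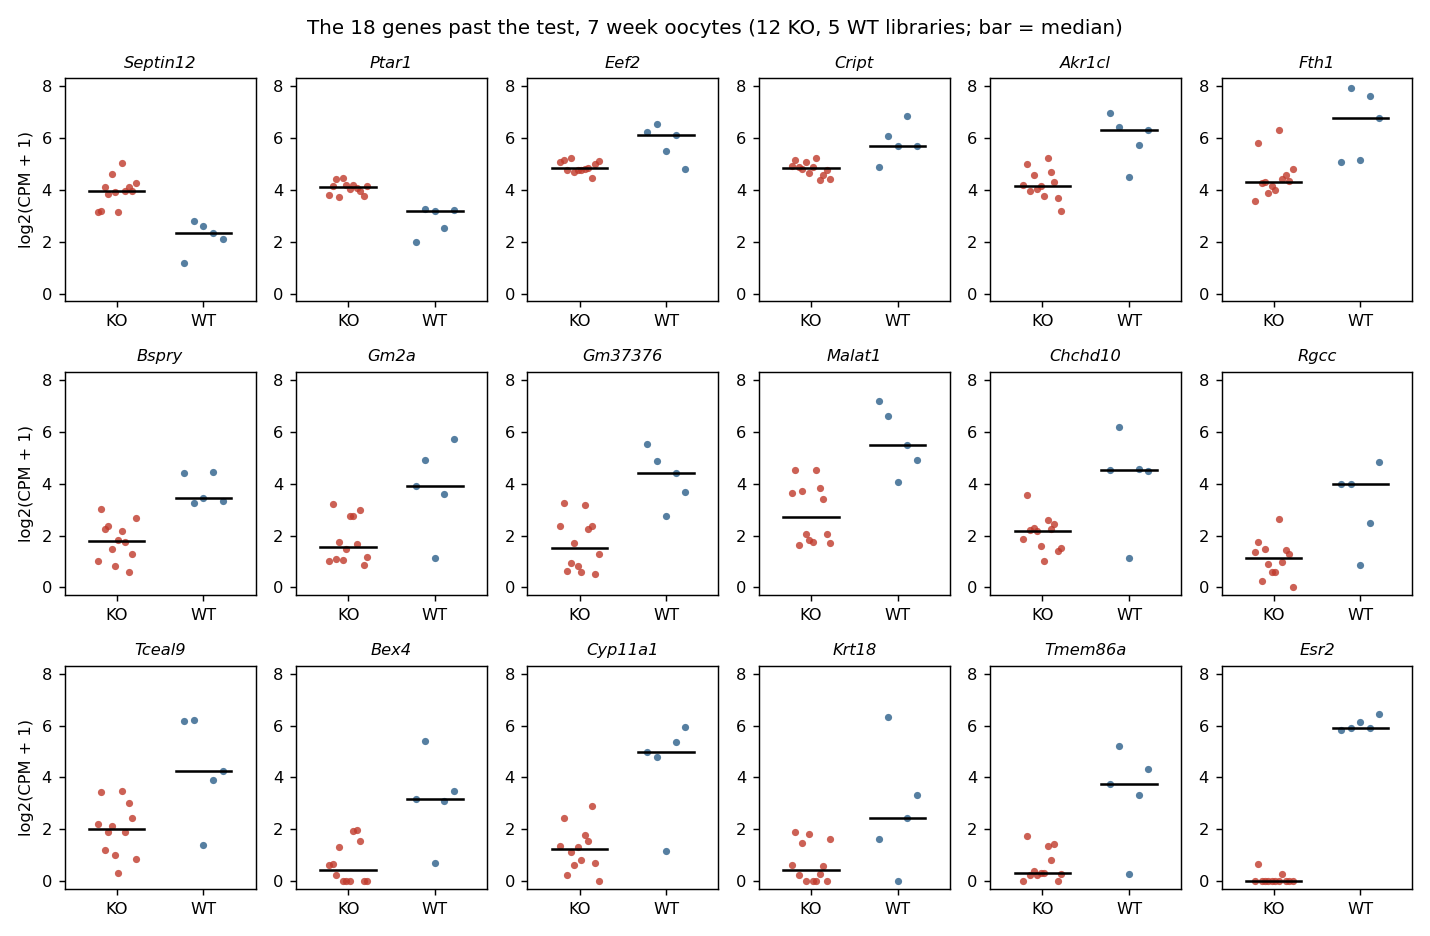
Level of each of the 18 genes past the test, as log2(CPM + 1), in the 12 knockout (KO, red) and 5 wild type (WT, blue) 7 week oocyte libraries; 1 dot is 1 library and the bar is the median. Septin12, Ptar1, Bspry and Esr2 do not overlap between the groups, and in 12 of the 16 lower genes wild type library 3 lies below the highest knockout library.

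The promoters of the named genes past the test were read for the letters that estrogen receptors and the steroid regulator SF-1 are known to bind. All 17 had a RefSeq promoter in GRCm38.p6, in 20 windows of 300 bases, 250 before and 50 after the start. The full estrogen response element, GGTCA and TGACC with any 3 bases between, was in none of the 20 windows and in 23 of all 32851 promoter windows (0.07%), both strands searched. The half-site AGGTCA was in 5 of the 20 windows, of Septin12, Cyp11a1, Krt18 and Chchd10, and in 16.3% of all windows. By gene that is 4 of 17. The longer TCAAGGTCA, which contains the half-site, was in both windows of Septin12 and in 0.423% of all windows. The 2 windows of Septin12 overlap and hold the same sites, which are thus counted in both, and by gene TCAAGGTCA was in 1 of 17. These are matches of letters and not sites shown to be bound, and a window with no match says nothing of the factor. The 4 promoters that hold the half-site are shown 5′ to 3′ in the direction of the gene, with the matched letters in capitals: Septin12 at chr16:4997764-4998063 (minus strand), Cyp11a1 at chr9:58014702-58015001, Krt18 at chr15:102027966-102028265 and Chchd10 at chr10:75932880-75933179 (plus strand).
Septin12: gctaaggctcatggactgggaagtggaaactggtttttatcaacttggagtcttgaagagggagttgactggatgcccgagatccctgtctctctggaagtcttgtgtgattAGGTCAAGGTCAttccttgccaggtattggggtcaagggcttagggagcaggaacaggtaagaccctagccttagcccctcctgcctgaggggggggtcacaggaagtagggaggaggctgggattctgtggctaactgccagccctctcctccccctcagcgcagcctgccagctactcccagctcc
Cyp11a1: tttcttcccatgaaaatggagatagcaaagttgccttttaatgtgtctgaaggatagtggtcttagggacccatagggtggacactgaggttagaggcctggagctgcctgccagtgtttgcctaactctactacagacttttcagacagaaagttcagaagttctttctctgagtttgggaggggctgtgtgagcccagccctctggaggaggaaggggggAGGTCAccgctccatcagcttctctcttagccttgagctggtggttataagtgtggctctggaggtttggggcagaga
Krt18: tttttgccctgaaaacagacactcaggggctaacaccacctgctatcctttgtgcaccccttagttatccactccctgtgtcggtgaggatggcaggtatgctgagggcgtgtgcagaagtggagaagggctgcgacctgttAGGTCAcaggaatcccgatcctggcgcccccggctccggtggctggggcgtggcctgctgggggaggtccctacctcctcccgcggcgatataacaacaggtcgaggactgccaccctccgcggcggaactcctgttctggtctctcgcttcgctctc
Chchd10: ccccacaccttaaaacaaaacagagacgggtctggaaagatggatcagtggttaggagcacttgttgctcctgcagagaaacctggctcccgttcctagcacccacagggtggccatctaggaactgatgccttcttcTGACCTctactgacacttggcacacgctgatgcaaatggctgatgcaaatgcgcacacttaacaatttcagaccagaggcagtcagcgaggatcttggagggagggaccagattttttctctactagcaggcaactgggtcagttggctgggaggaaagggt
In Septin12 a pair of half-sites stands head to tail with no base between them, and the other 3 windows shown hold 1 half-site each.

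Most of the genes lower in knockout oocytes were abundant in granulosa cells. All 15 lower genes other than Esr2 had a higher mean CPM in the 5 wild type granulosa libraries of the same age than in the knockout oocytes, and 13 of them more than 10 times higher. Among all 10373 tested genes with a granulosa value, 51.2% were higher in granulosa cells. The knockout level also made these genes lower, so that count is in part fixed by how they were chosen. Set against wild type oocytes instead, 14 of the 15 were higher in granulosa cells, all but Bspry, and 50.6% of all genes were. Akr1cl averaged 7468 ± 1316 CPM, Cyp11a1 5713 ± 3078 CPM and Fth1 3613 ± 970 CPM (SD, n = 5) in wild type granulosa libraries. Bspry, at 11.5 ± 5.69 CPM, and Cript, at 124 ± 34.2 CPM, were the 2 below that margin. In knockout against wild type granulosa cells at 7 weeks, 96 of 12002 genes passed (0.8%), 42 of them lower (0.35%). Of the 15 genes, 11 had a negative fold change there, 4 were lower at an unadjusted p under 0.05 and 1 passed, Krt18 (log2 -1.98, adjusted p = 0.0141). At that unadjusted p stood 2227 of the 12002 genes, in either direction. The share of all genes with a negative fold change is not given here, so the 11 cannot be set against it.

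Markers of granulosa cells were measured in every oocyte library. Of the 20 listed markers 12 had counts, but Serpine2, Bmpr1b, Cyp19a1, Nr5a2 and Greb1 had medians of 5 CPM or more in knockout oocytes, and the sum of the 12 was 1089 ± 136 CPM in knockout and 1031 ± 298 CPM in wild type libraries (SD, n = 12 and 5). Foxl2, Fshr, Amh and Wt1, which define granulosa cells, have no row in the table, so their level was not analysed here. The 7 markers with a median under 5 CPM in knockout oocytes were Fst, Inha, Inhba, Kitl, Hsd17b1, Grem1 and Gja1; since that choice used knockout values, their sum is a description. It spanned 2.50 to 81.0 CPM (median 5.11) in knockout libraries, against 39.1, 402, 8.32, 42.5 and 38.6 CPM in wild type libraries 1 to 5. The direction of the difference is in part fixed by that choice. The same 7 genes averaged 3534 ± 592 CPM (SD, n = 5) in wild type granulosa libraries. The knockout oocyte libraries held 0.0709% to 2.29% of that level, with a median of 0.145%, against 11.4% in wild type library 2 and 0.236% to 1.2% in the other wild type libraries. Their part in the result was not tested. With the summed level of the 12 markers as a covariate 24 genes passed, 4 higher and 20 lower, 16 of the 18 among them. With the log2 sum of the 7 markers, an alternative added after seeing the data, 1 gene passed, Esr2, while the fold changes were 2.19 for Septin12, 1.28 for Ptar1 and -3.14 for Cyp11a1.

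Inha, the alpha subunit of the hormone inhibin, was unevenly spread among the libraries of both groups. Knockout libraries spanned 0 to 65.3 CPM with a median of 0.790, and knockout library 9 was the highest. Wild type libraries 1 to 5 had 7.95, 268, 0.202, 15.02 and 15.6 CPM. The log2 fold change was -2.69 ± 1.20 (SE) with an adjusted p of 0.277, and without wild type library 2 it was -0.0557. Hsd17b1, which makes estradiol from estrone, was at 0 in 8 of 12 knockout libraries and at 13.9 CPM in wild type library 2 (adjusted p = 0.207).

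Markers of luteal and mural granulosa cells, which take up steroid synthesis around ovulation, were lower in the knockout libraries. The 8 markers with counts summed to 232 ± 44.6 CPM in knockout and 361 ± 91.6 CPM in wild type libraries (SD, n = 12 and 5; exact two-sided permutation test, adjusted over 9 lists, p = 0.00945), and the wild type median was above all 12 knockout libraries. The 6 of them with a median under 5 CPM in knockout oocytes, chosen in the same way and among them Cyp11a1, Star, Akr1c18 and Hsd3b1, summed to 1.42 to 58.1 CPM (median 7.84) in knockout, against 92.6, 132, 2.99, 116 and 235 CPM in wild type libraries. Wild type library 3 was again within the knockout range. Of single markers besides Cyp11a1 none passed: Akr1c18, which inactivates progesterone, had medians of 0.252 CPM in knockout and 10.0 CPM in wild type (log2 -3.996 ± 0.86, adjusted p = 0.0567), and Hsd3b1, which makes progesterone from pregnenolone, 2.29 and 33.9 CPM (adjusted p = 0.246; 0.0273 with the sample number as a block). In bulk libraries, fewer cells of a type and less RNA per cell cannot be told apart.

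**Figure D3:**
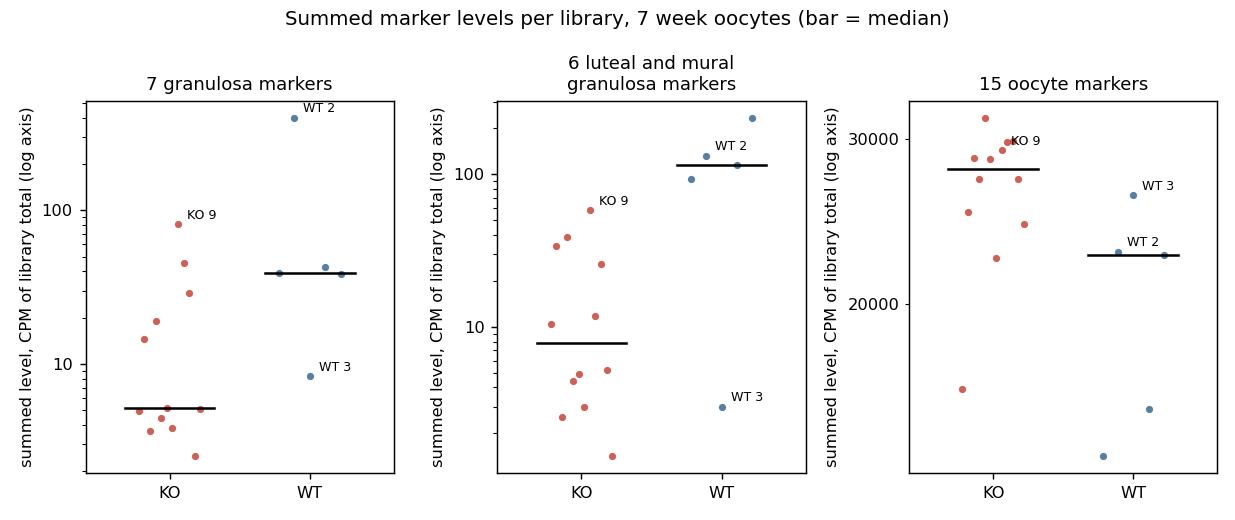
Summed level of granulosa markers (left), luteal and mural granulosa markers (middle), both with a median under 5 CPM in knockout oocytes, and oocyte markers (right), in CPM of the library total on a log axis; each dot is 1 library of 12 knockout (KO) or 5 wild type (WT) and the bar is the median. Wild type library 2 is the highest for granulosa markers at 402 CPM, and wild type library 3 lies among the knockout libraries in the left and middle panels.

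Other sums that moved were those of endothelium and oocytes. The 5 endothelial markers summed to 118 ± 23.0 CPM in knockout and 83.1 ± 12.4 CPM in wild type libraries (exact permutation test, adjusted p = 0.00945); without those with a mean of 5 CPM or more in knockout oocytes the log2 difference was -0.24, against 0.49 with them. The 15 oocyte markers summed to 26667 ± 4183 CPM in knockout and 20150 ± 5265 CPM in wild type libraries (exact permutation test, adjusted p = 0.0441), and the test lost its call in 11 of the 17 repeats without 1 library. The 6 detected members of the surface epithelium list summed to 211 ± 39.8 CPM in knockout and 248 ± 81.4 CPM in wild type (adjusted p = 0.419); without those with a mean of 5 CPM or more in knockout oocytes, a choice that used knockout values, the log2 difference was -1.85. The lists for cumulus cells, immune cells, smooth muscle, theca and stroma did not pass (adjusted p from 0.416 to 0.419), and no erythroid marker has a row in the table.

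Over all genes, the fold change in oocytes followed how much more abundant a gene was in granulosa cells than in oocytes. The ratio was taken between 7 week wild type granulosa libraries and 4 week oocytes of both genotypes, so that it used no 7 week oocyte. Among 216 genes with a log2 ratio under -6, the most oocyte-restricted, the median log2 fold change was 0.37 and 83.3% were positive. Among 181 genes with a log2 ratio over 6, it was -1.54 and 7.18% were positive, and 11 of the lower genes past the test stood in this bin. The 6 bins between had medians of 0.16, 0.09, 0.03, -0.04, -0.16 and -0.47, in order. Genes share libraries and the counts of the top bin are low in oocytes, so this is a description of these 17 libraries. Only genes that passed the filter on low counts in the 7 week oocytes were binned. A gene almost absent from knockout oocytes can pass that filter through the wild type libraries alone. The negative median of the top bin is therefore in part fixed by the filter.

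**Figure D4:**
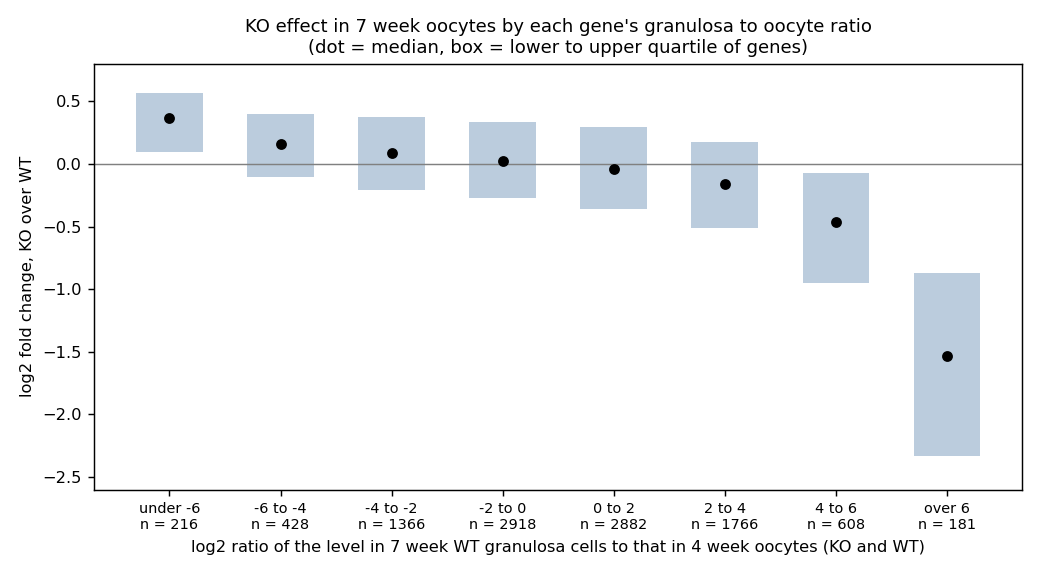
Log2 fold change, knockout over wild type, of tested genes in 7 week oocytes (vertical axis) by the log2 ratio of their level in 7 week wild type granulosa cells to that in 4 week oocytes (horizontal axis, 8 bins with the number of genes); dots are medians and boxes span the quartiles of genes. The medians go down from 0.37 in the lowest bin to -1.54 in the highest.

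None of the genes of the oocyte's own programme in the lists below passed the test. Of the 16 zona pellucida and oocyte-secreted factor genes all 16 were tested, none passed, and 12 had a positive fold change. Their median log2 fold change was 0.33, and 5 were higher at an unadjusted p under 0.05 against 8.94% of all genes. Gdf9, a growth factor of the oocyte, spanned 5978 to 23165 CPM (median 16476) in knockout, against 4757, 8568, 12292, 6430 and 11479 CPM in wild type libraries (log2 0.85 ± 0.28 SE, adjusted p = 0.179). The groups overlapped, and 10 of 12 knockout libraries lay above the wild type median. Astl, the protease that cleaves Zp2 after fertilization, had medians of 919 and 505 CPM in knockout and wild type (log2 0.90 ± 0.27, adjusted p = 0.155), and Zp2, a zona pellucida protein, 252 and 183 CPM (log2 0.48 ± 0.20, adjusted p = 0.245). Without knockout library 1, the shallow one, Astl and Gdf9 passed, with adjusted p of 0.0377 and 0.0442.

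Meiotic and spindle genes had list medians near that of all genes. Of 33 tested genes of meiotic arrest and resumption none passed, 7 were higher and 0 lower at an unadjusted p under 0.05 (all genes, 8.94% and 7.82%), and the median log2 fold change was 0.03. Mos, the kinase that holds the egg in metaphase, spanned 843 to 2617 CPM (median 2140) in knockout, against 310, 1462, 1114, 1079 and 1563 CPM in wild type libraries (log2 0.93 ± 0.28, adjusted p = 0.152). It passed in 4 of 25 alternatives, among them without knockout library 1 (adjusted p = 0.0377) and with DESeq2 (adjusted p = 0.0471). Ccnb1, cyclin B1, had medians of 1084 and 758 CPM in knockout and wild type (log2 0.73 ± 0.30), and Cdc20, an activator of the anaphase-promoting complex, 567 and 336 CPM (log2 0.72 ± 0.27). Of 37 spindle, kinetochore and cohesin genes none passed, with 6 higher and 3 lower at an unadjusted p under 0.05. Aurkc, the Aurora kinase of germ cells, had medians of 644 and 471 CPM (log2 0.57 ± 0.19, adjusted p = 0.183).

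Maternal stores were likewise without a call. In the subcortical maternal complex and maternal effect list, 0 of 31 passed and the median was 0.05. At an unadjusted p under 0.05, 4 were higher and 0 lower (all genes, 8.94% and 7.82%). Tcl1, a coactivator of the kinase Akt, had medians of 10761 CPM in knockout and 6490 CPM in wild type (log2 0.59 ± 0.26). In mRNA storage, polyadenylation and decay, 0 of 42 passed, with 6 higher and 3 lower at that p. Cpeb1, which binds the cytoplasmic polyadenylation element, had medians of 222 and 143 CPM in knockout and wild type (log2 0.79 ± 0.26, adjusted p = 0.179). Among 45 genes of DNA methylation and histone modification none passed, the median was -0.19 and 29 had a negative fold change. At an unadjusted p under 0.05, 4 were higher and 5 lower. H1f8, the linker histone of oocytes, was among those with a positive fold change. It spanned 6178 to 23213 CPM in knockout, against 3142, 11308, 10627, 10131 and 15816 CPM in wild type (log2 0.79 ± 0.29, adjusted p = 0.199). Of 15 oocyte transcription factor genes none passed; Nobox, needed for follicle growth, had medians of 263 and 191 CPM in knockout and wild type (adjusted p = 0.262).

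The lowest list medians were those of steroid synthesis, respiration and ribosomes, and their genes are mostly of low level in oocytes. Of 14 tested steroid synthesis genes 1 passed, Cyp11a1, and the median log2 fold change was -0.64, with 7 lower and 3 higher at an unadjusted p under 0.05. Fdxr, which passes electrons to Cyp11a1, had medians of 0.955 CPM in knockout and 9.11 CPM in wild type (adjusted p = 0.0829), and Star, the carrier of cholesterol into mitochondria, 1.28 and 10.5 CPM (adjusted p = 0.179). Of 72 nuclear-encoded genes of oxidative phosphorylation 0 passed, 32 were lower and 2 higher at an unadjusted p under 0.05 (all genes, 7.82% and 8.94%), and the median was -0.64. Ndufb9, a subunit of complex I, had medians of 4.28 and 12.4 CPM in knockout and wild type (log2 -1.70 ± 0.40, adjusted p = 0.0998), and Sdhb, the iron-sulfur subunit of succinate dehydrogenase, 2.72 and 12.0 CPM (log2 -1.62 ± 0.40, adjusted p = 0.114). Of 80 cytosolic ribosomal protein genes listed, 50 have a row and 36 were tested; 0 passed, 14 were lower and 0 higher at that p, and the median was -0.62. Rps3 had medians of 4.64 and 15.02 CPM (log2 -1.89 ± 0.46, adjusted p = 0.108). Beside these medians stand the granulosa levels of the same genes: 282 CPM for Ndufb9, 285 for Sdhb and 792 for Rps3 in wild type granulosa libraries. The part of granulosa RNA in the lists was not tested.

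Antioxidant and lipid genes were mixed. Of 27 antioxidant and glutathione genes 1 passed, Fth1, and the median was -0.23. At an unadjusted p under 0.05, 7 were lower and 1 higher (all genes, 7.82% and 8.94%). Gsr, glutathione reductase, had medians of 1.49 CPM in knockout and 4.28 CPM in wild type (log2 -2.16 ± 0.46, adjusted p = 0.0567), and Mgst1, a microsomal glutathione transferase, 1.51 and 24.5 CPM (adjusted p = 0.0875). Of 22 cholesterol synthesis and uptake genes 0 passed and the median was 0.13; Sc5d, a desaturase late in the pathway, had medians of 157 and 91.8 CPM in knockout and wild type (adjusted p = 0.193). Of 20 steroid receptors and coregulators, Esr2 alone passed, and Rxra, the partner of many nuclear receptors, had medians of 3.87 and 6.87 CPM (adjusted p = 0.161). Of 20 TGF-beta and BMP signalling genes 0 passed, with a median of -0.13.

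**Figure D5:**
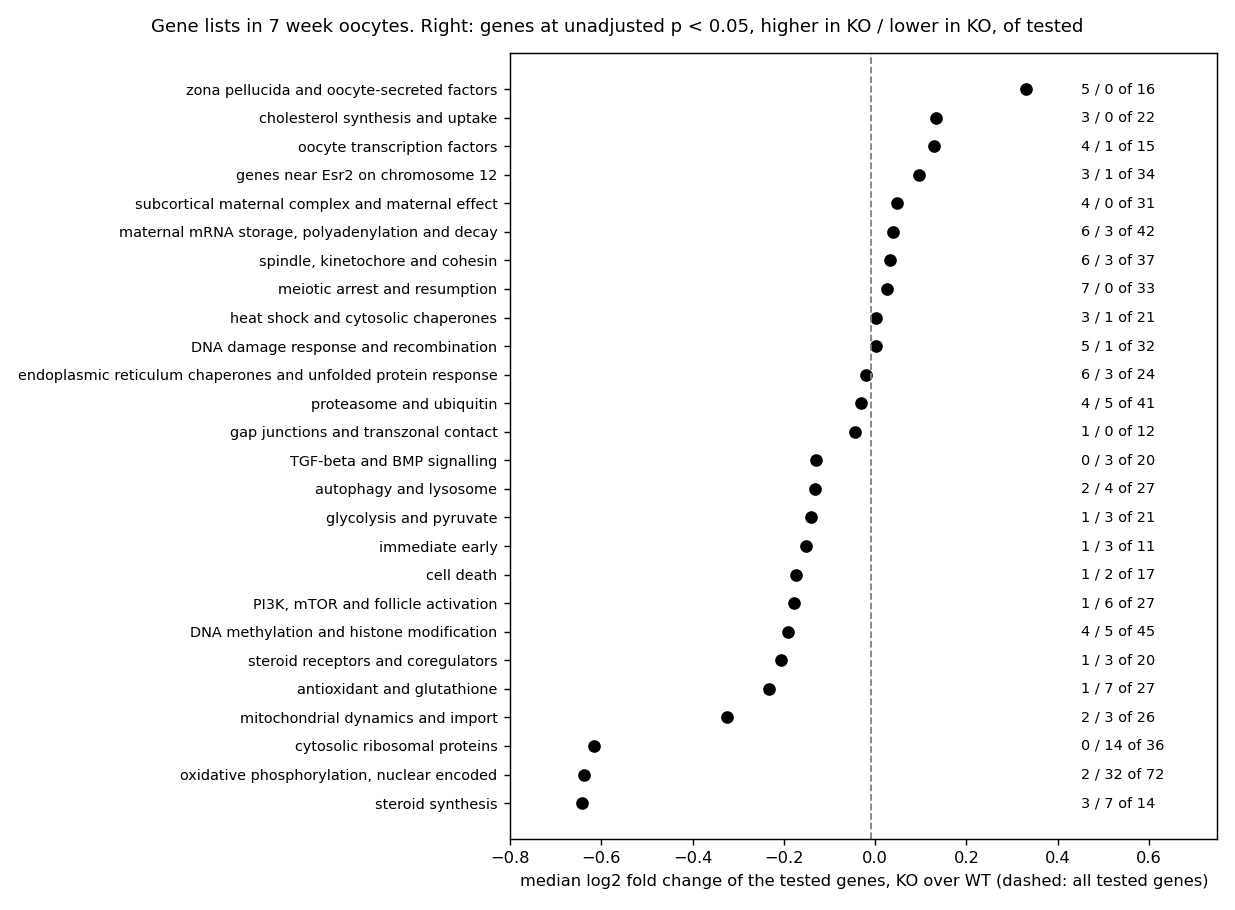
Median log2 fold change, knockout over wild type, of the tested genes of each of 26 gene lists in 7 week oocytes (dots), with the median of all tested genes as a dashed line; at the right stand the genes higher and lower in knockout at an unadjusted p under 0.05, of those tested. Steroid synthesis, oxidative phosphorylation and ribosomal proteins lie near -0.6, and zona pellucida and oocyte-secreted factors at 0.33.

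Genes beside Esr2 on chromosome 12 were read separately, since a knockout allele can carry flanking sequence of another strain. Of 34 tested, 0 passed and the median was 0.10. Hspa2, a heat shock protein of germ cells at chr12:76404176-76406938, spanned 1.03 to 10.1 CPM (median 5.81) in knockout, against 0.837, 0.895, 3.44, 1.90 and 2.79 CPM in wild type (log2 1.56 ± 0.44, adjusted p = 0.145). Rdh12, a retinol dehydrogenase at chr12:79208914-79222665, had medians of 159 CPM in knockout and 90.1 CPM in wild type (log2 0.90 ± 0.25, adjusted p = 0.149).

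Set beside the other ages, which have other numbers of libraries, the 7 week oocytes had the most calls, and no gene's knockout effect differed between ages in the edgeR test. At 4 weeks 1 of 10828 genes passed (0.00924%) and at 6 months 1 of 12225 (0.00818%), Esr2 both times. The test of the difference itself, over 13471 genes in 1 model of all oocyte groups, gave 0 genes against 4 weeks (1526 at an unadjusted p under 0.05) and 0 against 6 months (409 at that p). DESeq2 gave 8 and 0, and limma voom 0 and 0. The 8 all had a more positive knockout effect at 7 weeks than at 4 weeks; Ptar1, Il1rap and Astl are among them, and the other 5 were named after their values were seen: Dgat2, Gm32996, Rffl, Tada2a and Tspan3. For Ptar1 the edgeR log2 fold change was -0.55 at 4 weeks, 1.28 at 7 weeks and 0.33 at 6 months, and the difference of 1.82 ± 0.40 against 4 weeks had an adjusted p of 0.234. Septin12 was at -0.07 ± 0.47 at 4 weeks and 0.14 ± 0.42 at 6 months.

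Of the 15 lower genes other than Esr2, 10 could be tested at 4 weeks and 9 had a negative fold change, 0 at an unadjusted p under 0.05; of all genes at 4 weeks, 53.5% were negative and 2.25% were lower at that p. At 6 months 11 could be tested, 10 had a negative fold change and 3 were lower at that p, against 55.8% and 2.59% of all genes. Malat1 was at -0.24 ± 0.60 at 4 weeks and -2.63 ± 0.91 at 6 months, and Fth1 at -1.10 ± 0.55 and -2.36 ± 0.98 (SE). Bspry was near 0 at 4 weeks and at 0.62 ± 0.48 at 6 months, and its difference between 7 weeks and 6 months was -2.82 ± 0.81, with an adjusted p of 0.999911. The comparisons at each age rest on separate libraries.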

How the data were processed

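RNA of oocytes was sequenced by Smart-seq2, per the labels' protocols. The authors deposited estimated counts per gene in 1 table for each cell type and age, of which 4 were used; 82.1% of the values in the 7 week oocyte table, which has 16067 genes, are whole numbers. The submitters' processing notes name STAR, Partek, DESeq2 and mm10; the gene annotation and the use of strand are not given in the sources used here. Counts were rounded and tested with edgeR 4.0.16 (R 4.3.3) by the quasi-likelihood test, with filterByExpr at a minimum count of 10 and TMM scaling, in the 12 knockout and 5 wild type libraries; gene values are TMM-scaled CPM. Marker sums are CPM of the library total, compared by an exact permutation test on log2(CPM + 1). DESeq2 1.42.0 and limma 3.58.1 were alternatives. Differences between ages came from 1 edgeR model over all oocyte groups.

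The labels state no pairing. Deviations from the group means of same-numbered libraries had correlations of 0.507, 0.118, 0.168 and 0.230 for numbers 1, 2, 3 and 5. All were over 0.1, so the sample number was used as a block in an alternative fit. The main fit took no pairs. For wild type libraries 1, 2 and 3 the best match was the knockout library of the same number. For wild type library 5 it was knockout library 11. The libraries with number 1 were the shallowest of their groups.

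Named genes were Esr2 and Esr1, up to 15 genes past the test in each direction with at least 5 CPM in the higher group and no clone-like name, filled up to 5 with genes that did not pass, and up to 4 genes of the smallest p per list. The members, lists and tests were chosen with earlier results of these data known. On simulated data of 11377 genes, the 7 week test recovered 36% of genes changed by 1 on the log2 scale and 77% of those changed by 2, with 6 false calls. The test of the difference between 7 and 4 weeks, on 13216 genes, recovered 9% and 55%, with 3 false calls. The simulated counts were drawn independently around 1 mean per gene, with no outlying library and no granulosa RNA. These rates therefore need not hold for the real libraries.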

Additional observations from a re-analysis of the deposited data

Results flagged for a closer look

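In the wild type oocytes, 93 sets of library values were checked for 1 library far from the rest, and 6 passed the limit. The limit was one for groups of 5 libraries, so the check says nothing of the 12 knockout libraries. Chance alone gives about 1 in 20, and 6 of 93 is near that share. The sets share the same libraries, so the flags are not separate observations. In 5 of the 6 the library was wild type 2, the one with the highest sum of low-level granulosa markers. It had 80.1 CPM of Krt18, 41.4 CPM of Bex4, 17.7 CPM of Atp5j, a subunit of ATP synthase, 268 CPM of Inha and 45.7 CPM of Id3, a target of BMP signalling. Wild type library 4 had 63.7 CPM of Vti1b, a SNARE of vesicle fusion that lies near Esr2.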

How the results depend on the processing

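The count of 18 genes (2 higher, 16 lower) was 202 (118 higher, 84 lower) with DESeq2 and 1 (0 and 1) with limma voom. It was 114 (49 and 65) with voom quality weights, 30 (28 lower) with no filter on low counts and 3 (0 and 3) in 1 model over all oocyte groups. With genes above their knockout oocyte level in granulosa cells left out it was 1 (1 and 0). That choice drops every lower gene, Esr2 included, because all of them were higher in granulosa cells than in knockout oocytes. With the replicate block the count was 38 (16 higher), and 1 (0 and 1) for the same libraries with no block. The full granulosa marker covariate gave 24 (4 and 20), and that of low-level granulosa markers gave 1 (0 and 1). Without knockout 1 and wild type 1 together, 22 genes passed, 8 higher and 14 lower. Leaving out 1 library gave 2 to 296 genes, 0 to 139 higher and 2 to 157 lower. DESeq2 gave 8 genes whose effect differed from 4 weeks. Scaled by TMM, the smooth muscle sum differed by 0.0122 (log2). Without markers at a mean of 5 CPM or more in knockout oocytes, the sums differed by -0.24 for endothelium, -1.80 for granulosa, 0.16 for oocyte and -1.85 for surface epithelium; with markers of a median under 5 CPM, by -0.24, -2.12, 0.16 and -1.85, and by -2.65 for luteal and mural granulosa. Leaving out 1 library, the sums ranged from -0.45 to 0.00578 for cumulus, -0.0122 to 0.24 for granulosa and 0.30 to 0.53 for oocyte. Among single genes, Esr1 was at 0.0082 with the granulosa marker covariate and Padi6 at -0.0156 and Vti1b at 0.0869 with the replicate block. With the low-level granulosa covariate Inha was at 0.81, Id3 at 0.37 and Inhba at 0.16. Leaving out 1 library, Esr1 ranged from -0.0906 to 0.0981 and Id3 from -1.44 to 0.0143, the last without wild type library 2. The cause of these changes was not tested. Depth limits the low genes: 10 of the 15 lower genes averaged under 5 CPM in knockout oocytes.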
